A study of Homo sapiens with 29 samples.

Results

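Open chromatin was followed at the loci of 6 transcription factors of luminal epithelium, GRHL2, TRPS1, SPDEF, EHF, ELF3 and KLF5, in 22Rv1, a human prostate cancer cell line. Every ATAC-seq peak within 50 kb of the given hg19 span of each gene was taken from 29 peak lists, and overlapping peaks were merged over libraries. This gave 102 of the 166696 merged regions of the whole genome: 39 at GRHL2, 16 at TRPS1, 13 at SPDEF, 14 at EHF, 14 at ELF3 and 6 at KLF5. The spans were chr8:102504668-102681952 (GRHL2), chr8:116420724-116681255 (TRPS1), chr6:34505579-34524091 (SPDEF), chr11:34642588-34684835 (EHF), chr1:201979690-201986311 (ELF3) and chr13:73629114-73651680 (KLF5). TRPS1 and SPDEF lie on the minus strand. A library held a region when at least 1 bp of one of its peaks overlapped it.

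ATAC-seq uses a transposase to cut accessible DNA, so that a peak marks a stretch that was cut more often than its surroundings. Parental 22Rv1 cells gave 5 groups of 3 libraries: vehicle (DMSO at 0.1%), WX-02-23 at 20 µM, WX-02-43 at 20 µM, and pladienolide B (PladB) at 10 nM or 100 nM. WX-02-23 and WX-02-43 are a pair of stereoprobes, the first a covalent ligand of the pioneer factor FOXA1, and PladB is an inhibitor of the splicing factor SF3B1. Engineered cells gave 7 groups of 2 libraries, and all of them, vehicle groups included, stably expressed PHF5A with the Y36C change and carried a doxycycline (Dox)-inducible FOXA1. The WT-FOXA1 line received DMSO without Dox, or Dox together with 1 of DMSO, WX-02-23 (20 µM) and PladB (100 nM). The C258A-FOXA1 line, in which the inducible FOXA1 has a cysteine replaced by alanine, was always given Dox, with vehicle, WX-02-23 or PladB at the same doses. Exposure to compound or vehicle lasted 3 h in every group. The labels name no removal of the endogenous FOXA1 of 22Rv1 in any line, and give no FOXA1 level.

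The peak names place the parental and the engineered lists in different project folders, so cell line cannot be told apart from any batch that goes with the folder. The labels do not say whether replicates were separate cultures, so the spreads and p-values below measure the spread between these libraries, which may be technical. The lists held 62832 to 98193 peaks, and no list was identical to another. The most similar pair shared 0.780 of its combined regions. No source used here gives read totals, so sequencing depth is unknown, and a region without a peak can be open below the detection limit of its library. The fold enrichment and p-value of a peak are the authors' own and describe its place within its own list only.

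GRHL2 is a grainyhead-like factor that sets the epithelial state and activates junction genes such as CDH1. TRPS1 is a GATA-type zinc finger repressor. SPDEF, EHF and ELF3 belong to the epithelium-specific branch of the ETS family, SPDEF being high in luminal and secretory cells of the prostate, and KLF5 is a Krüppel-like zinc finger factor of epithelial progenitors. In prostate luminal cells such genes can be under the control of distal enhancers that FOXA1, the androgen receptor and HOXB13 are known to share, with FOXA1 able to bind compacted DNA through its forkhead domain. A peak shows accessible DNA, and neither RNA nor factor binding was measured here.

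RefSeq promoters (build GRCh38.p14) could be matched for 4 of the 6 genes, with 6 entries in all. The following 4 are shown because they sit at or near starts whose accessibility is described below, and because they differ in the motifs that the factors named above recognise. The entries for ELF3 and EHF start 1 are not printed, and they held none of the motifs searched. Each line gives the 250 bases before a transcript start, 5′ to 3′ on the strand of the gene, with motif letters in capitals.
SPDEF, chr6:34556330-34556579, minus strand: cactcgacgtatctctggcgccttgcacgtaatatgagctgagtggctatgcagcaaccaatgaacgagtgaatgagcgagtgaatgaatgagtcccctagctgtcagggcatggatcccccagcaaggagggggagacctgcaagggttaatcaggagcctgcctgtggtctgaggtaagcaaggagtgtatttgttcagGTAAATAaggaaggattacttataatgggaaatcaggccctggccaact
EHF start 2, chr11:34632316-34632565, plus strand: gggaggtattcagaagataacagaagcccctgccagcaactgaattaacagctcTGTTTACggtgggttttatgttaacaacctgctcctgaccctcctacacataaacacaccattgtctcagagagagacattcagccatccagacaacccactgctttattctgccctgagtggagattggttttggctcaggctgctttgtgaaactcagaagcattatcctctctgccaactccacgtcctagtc
KLF5 start 1, chr13:73054726-73054975, plus strand: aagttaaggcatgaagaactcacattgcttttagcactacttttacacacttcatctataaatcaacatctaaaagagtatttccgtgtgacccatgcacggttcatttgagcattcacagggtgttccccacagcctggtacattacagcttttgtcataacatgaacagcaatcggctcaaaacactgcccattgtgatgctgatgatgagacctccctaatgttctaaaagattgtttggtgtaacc
KLF5 start 2, chr13:73058755-73059004, plus strand: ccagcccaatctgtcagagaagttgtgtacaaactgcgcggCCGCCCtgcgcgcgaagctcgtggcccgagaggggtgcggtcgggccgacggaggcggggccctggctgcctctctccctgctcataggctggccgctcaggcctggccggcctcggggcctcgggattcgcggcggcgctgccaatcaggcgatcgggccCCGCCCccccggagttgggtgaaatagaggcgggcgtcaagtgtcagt

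The letters searched, on both strands and from 250 bases before to 50 after each start, were TGTTTAC and TATTTAC (forkhead), AACNNGTT (grainyhead-like), CCGGAA (ETS) and GGGCGG (GC box). SPDEF held 1 forkhead match, TATTTAC read on the other strand, that begins 49 bases before the start. EHF start 2 held TGTTTAC beginning 196 bases before its start. Of 35116 RefSeq promoters of this length, 5.97% held at least 1 of the 2 forkhead strings, 3.52% the grainyhead-like string, 17.2% the ETS string and 45.0% the GC box. KLF5 start 2 held 2 GC boxes, beginning 209 and 48 bases before the start, and 71.3% of its 300 bases were G or C. KLF5 start 1 held none of the strings and was 40.7% G or C, against a median of 58.7% over all promoters. These matches are letters in a window and not binding sites.

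The share of regions open in every library was uneven between the genes, highest at ELF3 and lowest at TRPS1. Of the 102 regions, 52 overlapped the body of their gene, 27 lay upstream and 23 downstream. The body held 1 of 14 regions at ELF3 and 9 of 16 at TRPS1. Flanks, which may belong to neighbouring genes, thus weigh more in the share at ELF3. A peak in all 29 libraries was found for 28 regions (27.5%), against 35901 (21.5%) of all regions in the genome. The share differed between genes: 8 of 14 regions (57.1%) at ELF3, 5 of 13 (38.5%) at SPDEF, 4 of 14 (28.6%) at EHF, 9 of 39 (23.1%) at GRHL2, 1 of 6 (16.7%) at KLF5 and 1 of 16 (6.25%) at TRPS1. At the other end, 16 regions (15.7%) had a peak in 1 library, against 16.9% of all regions. The window limit of 50 kb left regions found in all 29 libraries just outside it at GRHL2 (53.5 kb from the gene), SPDEF (53.0 kb) and KLF5 (55.8 kb). The outermost regions inside it lay at 40.9 kb (24 libraries), 46.2 kb (26 libraries) and 14.2 kb (1 library). In each of the 29 libraries a larger share of these regions than of all regions had a peak, 39.2% to 61.8% against 34.5% to 55.0%.

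**Figure D1:**
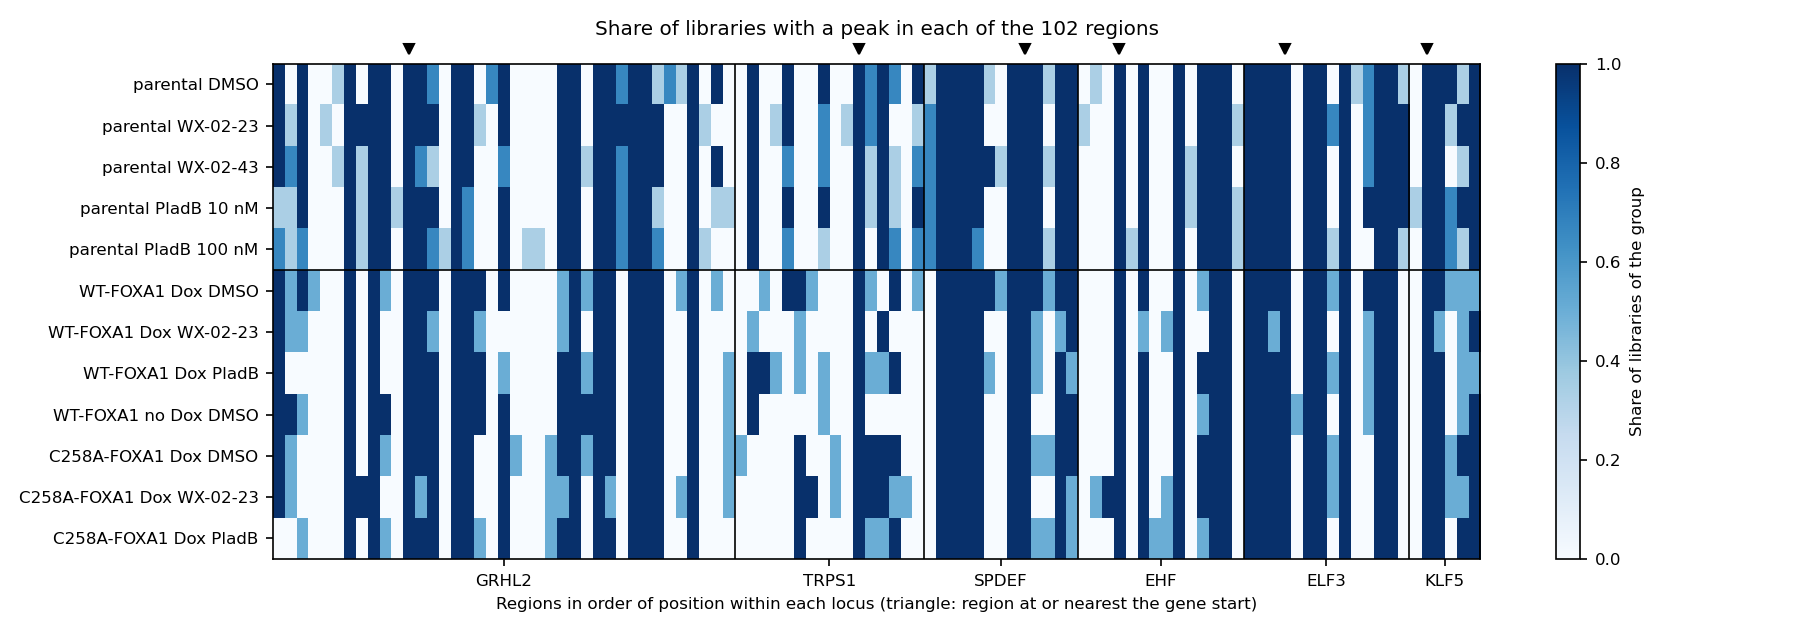
Share of libraries of each group (rows) with a peak in each of the 102 regions (columns, in order of position within each locus), from white at 0 to dark blue at 1; the horizontal line separates parental from engineered groups and triangles mark the region at or nearest each gene start. The 28 columns that are dark in every row are the regions found in all 29 libraries, and TRPS1 has 1 of them.

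Per 100 kb of window, the 3 parental DMSO libraries held the most regions at ELF3, with 9.38, 11.3 and 8.44. SPDEF followed with 8.44 in each library, within the spread of ELF3, and GRHL2 with 7.57, 7.57 and 8.30 lay just below SPDEF without overlap. EHF held 4.22, 4.92 and 4.22 regions per 100 kb, and KLF5 3.26, 3.26 and 4.08. TRPS1 was the sparsest, with 2.22, 1.94 and 1.94, although its window of 360.5 kb was the widest. From GRHL2 downward, no neighbours in this order overlapped in these 3 libraries.

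A peak in the merged region that overlaps the annotated gene start was found in all 29 libraries for GRHL2, TRPS1, SPDEF, EHF and ELF3. At KLF5 no library had a peak at the annotated start, and the nearest region, also found in all 29, began 3540 bases into the gene. The rank of each peak within its own list, as the percentile of the deposited p-value, describes how the starts stood among all peaks of a library. ELF3 had the top-ranked start: its region (chr1:201978574-201980288) lay at percentile 99.1 in the lowest library, 99.8 at the median and 100.0 in the highest, with a fold enrichment of 10.0, 12.1 and 14.8. KLF5 (chr13:73632654-73633930) followed with percentiles of 95.0, 97.1 and 99.1 and folds of 9.61, 12.1 and 15.1. GRHL2 (chr8:102504147-102505141) had percentiles of 90.7, 96.1 and 98.8 and folds of 8.65, 10.6 and 12.2. The ranges of KLF5 and GRHL2 overlapped each other, and neither reached the median of ELF3.

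TRPS1 (chr8:116680755-116681886), the repressor gene with the fewest regions per 100 kb, had a start at percentiles of 75.3, 86.2 and 88.6 and folds of 11.6, 13.2 and 14.7. EHF (chr11:34642086-34643014) spanned percentiles of 27.5, 75.4 and 86.2 and folds of 5.90, 11 and 13.9. The SPDEF start (chr6:34523703-34524318) ranked lowest, with percentiles of 11, 47.8 and 63.6 and folds of 3.74, 4.53 and 5.68. A second SPDEF region (chr6:34522509-34523413), with its summit 1242 bases into the gene at the median, was also found in all 29 libraries and ranked higher, with percentiles of 48.0, 68.5 and 83.6. The lowest value at EHF came from replicate 1 of the C258A-FOXA1 line with WX-02-23.

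**Figure D2:**
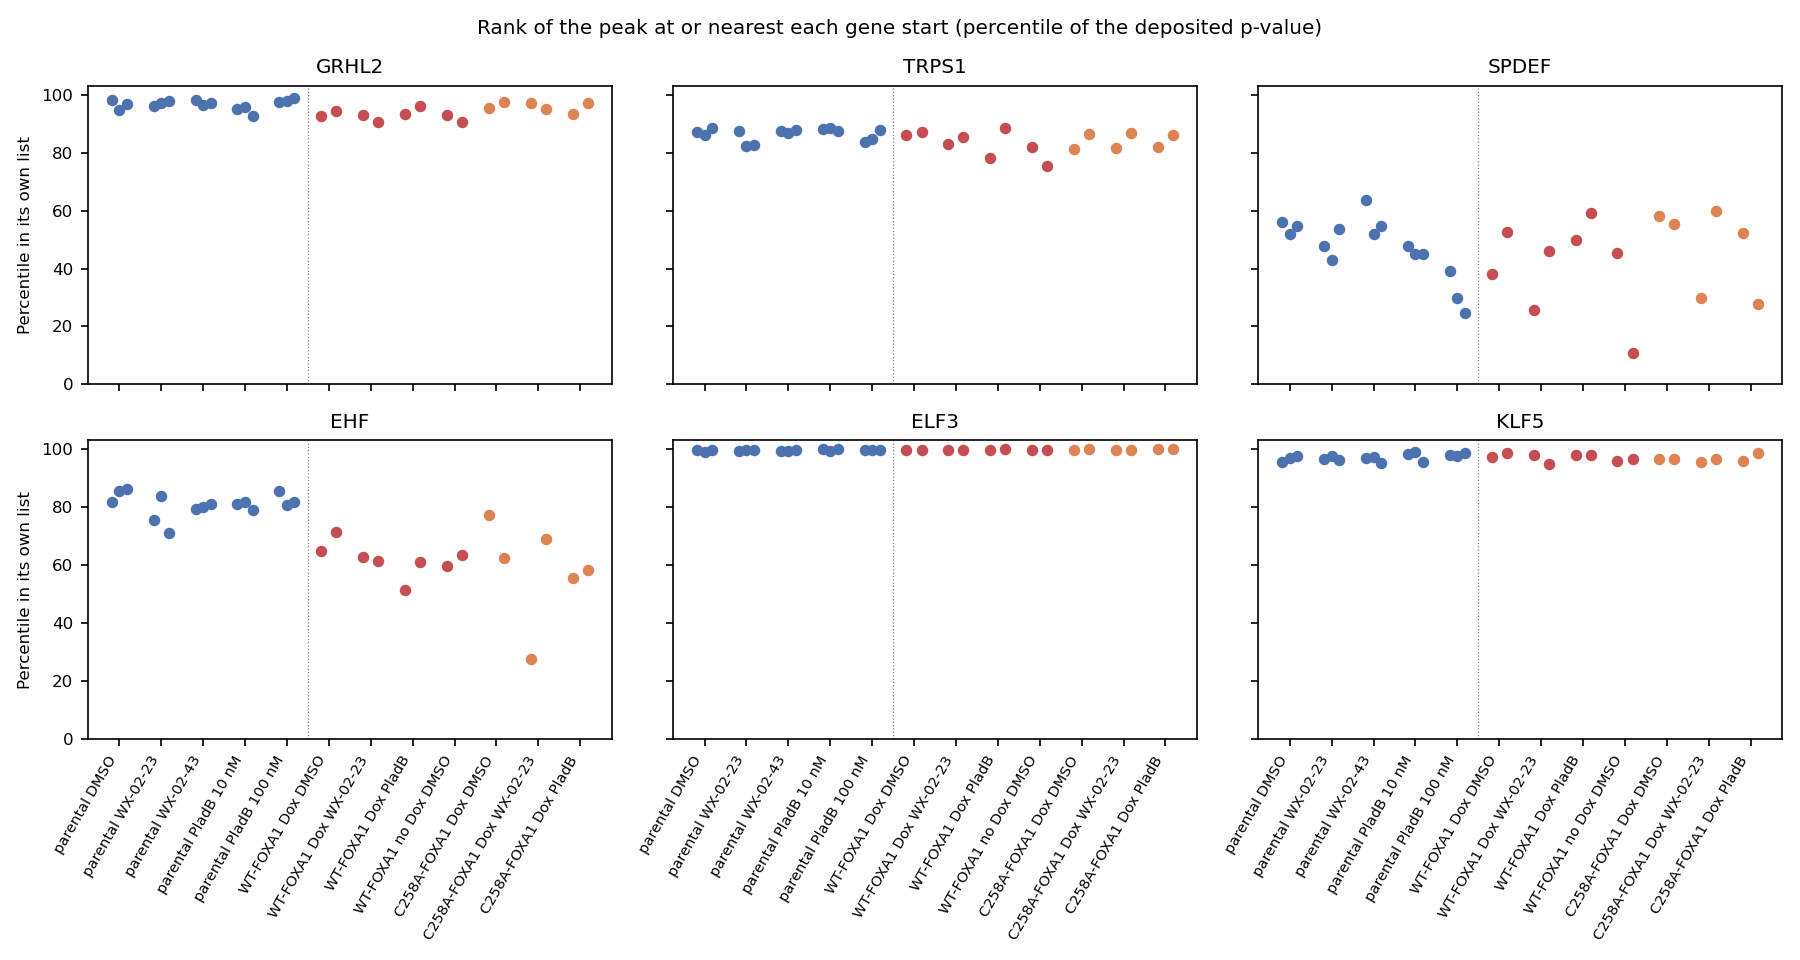
Percentile of the peak at or nearest each gene start among all peaks of its own list, ranked by the deposited p-value (y axis, 0 to 100), for each library (points) by group; blue is parental, red the WT-FOXA1 line and orange the C258A-FOXA1 line. ELF3 lies at 99.1 or above in every library, whereas SPDEF spans 11 to 63.6 and EHF 27.5 to 86.2.

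The KLF5 peak and an intragenic EHF peak lay close to later transcript starts. The summit of the KLF5 region was 3890 bases after the annotated start at the median, and RefSeq lists its second KLF5 start 4029 bases after the first. The region of EHF at chr11:34653232-34654464 covered bases 10644 to 11876 after the annotated start, held a peak in 28 of 29 libraries and had its summit 11455 bases in at the median. RefSeq lists EHF start 2 at 11473 bases after the start of the gene. EHF start 1 is listed at 3164 bases and had no peak near it. No EHF region lay between one centred 0.6 kb in and the one that begins at 10644. The peak distances are on hg19 and the RefSeq distances on GRCh38.p14, and no coordinates were converted. So the GC-rich KLF5 start 2 printed above, not start 1, is the one near a peak, and EHF start 2 with its forkhead string is near one as well.

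The KLF5 region was called as 1 peak in all 15 parental libraries and as 2 separate peaks in all 14 engineered libraries. The parental peak was 1137 bp wide at the least, 1196 bp at the median and 1228 bp at the most. From the first to the last base of both peaks, the engineered libraries spanned 1088, 1136.5 and 1180 bp, overlapping the parental values. The gap between their 2 peaks was 90, 179.5 and 318 bp, and the stronger peak alone was 559, 606 and 795 bp wide. The percentile of the strongest peak overlapped, 95.1 to 99.1 in parental against 95.0 to 98.6 in engineered libraries, and so did its fold, 9.61 to 12.4 against 11.9 to 15.1. At the EHF start, peaks covered 474 to 886 bp in parental libraries (1 or 2 peaks) and 284 to 497 bp in engineered libraries (1 peak), with overlap. The fold of the EHF peak was 9.62 to 13.9 against 5.90 to 12.9, also with overlap. Since line and project folder coincide, these differences cannot be assigned to the line or to a batch that goes with the folder. How many regions of the genome were split between the lines like the KLF5 region was not counted. The median peak width of a list was 296 to 319 bp in parental and 290 to 303 bp in engineered libraries, with overlap.

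Outside the starts, the highest-ranking region of each gene was taken by its mean percentile over 7 DMSO libraries, with a library that lacked the peak counted as 0. These were the 3 parental DMSO libraries and the 4 with Dox and DMSO, without the 2 given no Dox. At GRHL2 it lay 18.2 kb upstream (chr8:102486177-102486822), with folds of 10.2, 13.0 and 15.4 and percentiles of 78.7, 87.4 and 94.6 in all 29 libraries. At EHF it lay 47.2 kb from the start beyond the end of the gene (chr11:34689315-34690259), with folds of 11.3, 14.3 and 17.0 and percentiles of 82.5, 94.3 and 98.1. At ELF3 it lay 24.5 kb downstream (chr1:202003648-202004802), with folds of 9.33, 12.4 and 15 and percentiles of 94.2, 96.1 and 98.6. By percentile the median lay below that of the gene's own start at GRHL2 and above it at EHF, with overlapping ranges, and at ELF3 the whole range lay below the start. The top of the fold range was above that of the start at all 3 genes.

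SPDEF had its highest-ranking distal region 24.2 kb downstream of the start, beyond the gene end (chr6:34499423-34500422), at percentiles of 87.1, 91.6 and 95.1 and thus above its own start in every library. At KLF5 the region was intragenic, 11.1 kb in (chr13:73640028-73640448), with a peak in 28 of 29 libraries. A KLF5 region 35.6 kb from the start (chr13:73664379-73664979) had the same mean percentile, 41.8, in the DMSO libraries that held it, but 6 of the 7 did, against 7 of 7. TRPS1 had its highest-ranking region 24.7 kb upstream (chr8:116705754-116706144), in 23 of 29 libraries and 5 of the 7 DMSO libraries. This choice rests on counting absence as 0: over the libraries with a peak, its mean percentile was 54.5, against 58.2 in 4 of the 7 for the region 190.0 kb inside TRPS1 described below. All 15 parental libraries held the TRPS1 region 24.7 kb upstream, but no WT-FOXA1 library given DMSO did, whether Dox was present or not. RefSeq places RNPEP and TIMM17A upstream of ELF3, NCALD downstream of GRHL2, ILRUN upstream and PACSIN1 downstream of SPDEF. Some flanking regions may therefore belong to those genes. PACSIN1 covers bases 21106 to 90253 after the SPDEF start on GRCh38, a stretch that includes the 24.2 kb (hg19) of the SPDEF region above. Exons and introns were not assigned, because no hg19 annotation was used here.

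In parental cells, WX-02-23 was set against DMSO at these loci. The labels give the PHF5A change for the engineered lines only. Whether a difference after WX-02-23 goes through FOXA1 or another target was not tested. A region was called gained when every library of the first group and none of the second had a peak, and lost in the reverse case. With 3 libraries against 3 no exact test can give a p under 0.1, so these calls carry no p. Of 79 regions at the 6 loci with a peak in either group, 1 was gained (1.27%) and 1 was lost (1.27%), both at GRHL2. Among all regions 1.82% were gained and 1.18% lost, so the loci were near the background. The other 5 genes had no call. The number of regions held overlapped at all 6 genes, where 4.98% of 150 kb genome tiles with at least 5 regions were higher and 2.96% lower without overlap.

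The gained region lay 23.0 kb upstream of GRHL2 (chr8:102481443-102481869). Its fold was 6.09, 6.20 and 6.01 in the 3 WX-02-23 libraries, at percentiles 61.5, 62.3 and 53.2, and no DMSO library had a peak. One of 3 libraries held it with WX-02-43 (fold 3.98), with PladB at 10 nM (3.54) and with PladB at 100 nM (4.19). It was also gained in the C258A-FOXA1 line, with folds of 6.15 and 4.49 after WX-02-23 and no peak after DMSO. None of the 8 WT-FOXA1 libraries had a peak there. The difference between the lines was not tested.

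The lost region lay past the end of GRHL2, 179.1 kb from its start (chr8:102683641-102683937). Its fold was 6.91, 6.21 and 6.25 after DMSO and 8.14, 4.25 and 5.60 after WX-02-43, and no WX-02-23 library had a peak. It was therefore lost against both. No library held it after PladB at 100 nM, 1 of 3 did at 10 nM (fold 6.51), and 1 of 14 engineered libraries did (fold 7.05). Its percentiles ran from 0.8 to 46.4 where present, in the lower part of the lists.

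The parental WX-02-23 libraries could also be set against all 12 other parental libraries, which allows an exact test with a smallest p of 0.0022. Those 12 libraries pooled DMSO, the other stereoprobe and both PladB doses, and are not replicates of a single condition. The p-values therefore do not measure WX-02-23 against vehicle alone. Against DMSO alone, the mean difference at GRHL2 was 0.667 regions, with overlapping counts. The number of regions held at GRHL2 was 22.3 ± 1.53 (SD, n = 3) with WX-02-23 and 20.6 ± 1.68 (SD, n = 12) in the others, a difference of 1.75 (exact two-sided permutation test, p = 0.134, adjusted p = 0.708 over 15309 genome tiles and loci). Among peaks with a q-value of 1e-05 or below the GRHL2 difference was 3.25 (exact permutation p = 0.0286, adjusted p = 0.407). ELF3 held 11.3 ± 1.15 (n = 3) against 10.4 ± 0.996 (n = 12), with an exact permutation p of 0.242 and an adjusted p of 0.813. TRPS1, SPDEF, EHF and KLF5 differed by 0.083, -0.5, 0.167 and 0.167 regions, with unadjusted exact p from 0.466 to 1. No difference at any locus exceeded the spread between libraries by this test, and 0 of the 6 had an unadjusted p under 0.05. Over all tiles and loci 9.74% had one, and 0.0% passed after Benjamini-Hochberg adjustment.

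Region by region, Fisher's exact test was run against the same pooled libraries. It called 0 of 89 regions at the 6 loci and 0.0% of all 135804 regions after adjustment. At an unadjusted p under 0.05, 1 region at the loci (1.12%) and 3.67% of all regions passed. The 1 region was that gained upstream of GRHL2, with p = 0.044 by Fisher's exact test and an adjusted p of 1.0. The lowest adjusted p of any region was 0.286.

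The stereoprobes were compared at the same dose and time, in 1 pair. Against WX-02-43, WX-02-23 gained 0 and lost 2 of 77 regions at the 6 loci, where 1.6% of all regions were gained and 1.07% lost. One is the lost GRHL2 region above. The other lay 3.0 kb inside SPDEF (chr6:34520993-34521248), with folds of 3.11, 3.14 and 2.83 after WX-02-43 and no peak after WX-02-23 or PladB in parental cells. One of 3 DMSO libraries held it (fold 2.86), so it was not lost against DMSO. Its percentiles were low, 12.3, 12.4 and 8.6 after WX-02-43 and 5.3 in that DMSO library. In lists of equal length 0 regions were lost between the stereoprobes, where 1.43% of all regions were.

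SPDEF also differed in the number of regions held, 11, 12 and 11 with WX-02-43 against 10, 10 and 9 with WX-02-23 and 10 in each DMSO library. The WX-02-43 values lay above both other groups without overlap. Such an excess over DMSO was seen in 1.07% (a deficit in 1.45%) of tiles, and a deficit of WX-02-23 against WX-02-43 in 2.02% (an excess in 4.7%). The other 5 genes overlapped between the stereoprobes, with mean differences of 1.33 at GRHL2, 0.667 at TRPS1 and ELF3, 0.33 at EHF and 1.0 at KLF5. At GRHL2 the counts were 24, 22 and 21 with WX-02-23 against 21, 23 and 19. With n = 3 in each group the smallest exact p is 0.1, so the absence of a p under 0.05 does not show that the 2 compounds act alike.

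Against DMSO, WX-02-43 gained 0 and lost 1 of 74 regions, where 0.34% of all regions were gained and 0.369% lost. The lost region lay beyond the end of KLF5, 27.7 kb from its start (chr13:73656694-73656956). Its fold was 7.44, 6.49 and 5.37 after DMSO, and 1 of 3 WX-02-23 libraries held it (fold 5.00). At either dose of PladB 2 of 3 libraries held it.

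Few regions at these genes were called with PladB in parental cells. At 10 nM it gained 0 and lost 0 of 76 regions, where 0.408% of all regions were gained and 0.556% lost. Counts overlapped with DMSO at all 6 genes, and 1.13% of tiles were higher and 2.03% lower without overlap. At 100 nM it gained 0 and lost 1 of 78, the region past the end of GRHL2 that WX-02-23 also lacked, where 0.187% were gained and 1.68% lost. TRPS1 held 4, 6 and 6 regions at 100 nM against 8, 7 and 7 after DMSO, without overlap. A deficit of this kind was found in 9.58% of genome tiles at that dose and an excess in 0.282%, and the lists at 100 nM were shorter (82538 to 87426 peaks against 91632 to 98193). All parental comparisons with DMSO share the same 3 DMSO libraries.

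**Figure D3:**
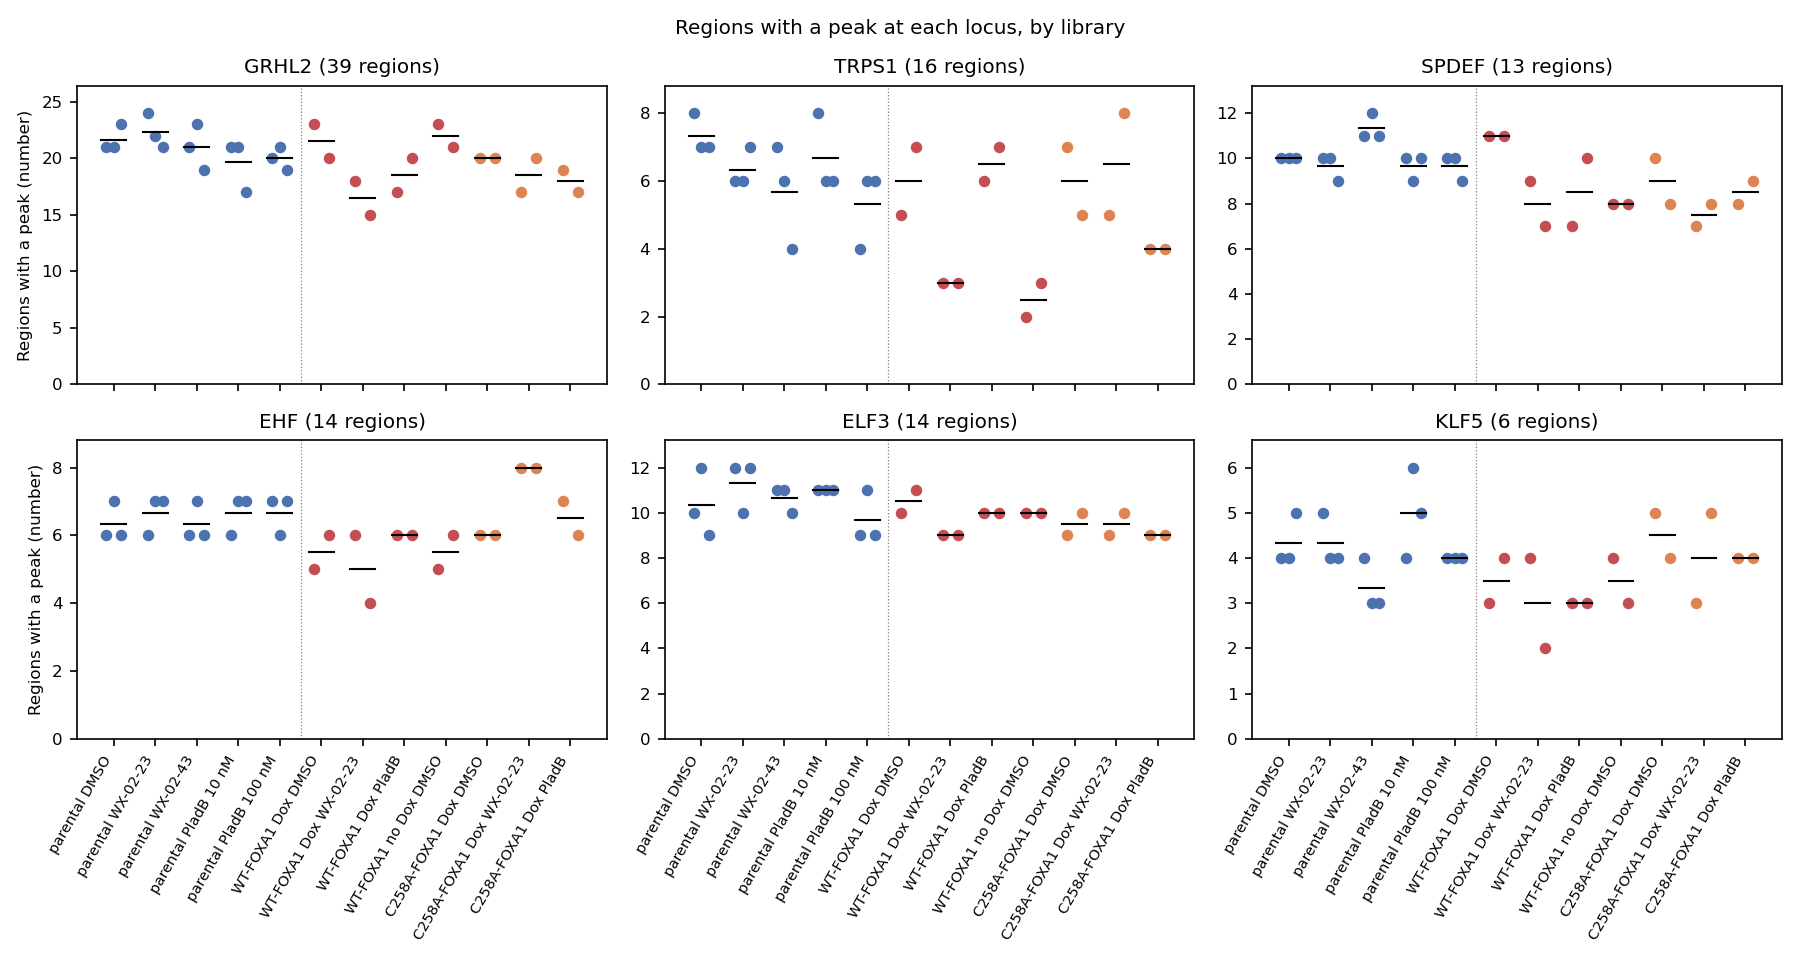
Number of regions with a peak at each locus (y axis) in each library (points), by group; short lines are group means, blue is parental, red the WT-FOXA1 line and orange the C258A-FOXA1 line. Single libraries span 15 to 24 regions at GRHL2 and 2 to 8 at TRPS1, where the lowest is a WT-FOXA1 library without Dox.

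Of the 6 genes, TRPS1 and SPDEF held more regions in both libraries with Dox than in either without it. With Dox and DMSO, TRPS1 held 5 and 7 regions, and without Dox 2 and 3. SPDEF held 11 and 11 with Dox and 8 and 8 without. Both sets were without overlap, and the other 4 genes overlapped. An excess of this kind was found in 40.6% of genome tiles, and a deficit in 1.5%. The lists were longer with Dox, at 88140 and 85009 peaks against 69814 and 67195. When all 4 lists had the length of the shortest, the mean difference was 1.5 at TRPS1 and 0.5 at SPDEF.

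Of 71 regions at the 6 loci, 5 were gained with Dox (7.04%) and 1 was lost (1.41%), where 13.2% of all regions were gained and 1.1% lost. In lists of equal length 2 were gained and 4 lost, against 8.09% and 3.98% of all regions. The 5 gained regions were 3 at TRPS1 and 2 at SPDEF. Inside TRPS1, 190.0 kb from the start (chr8:116490894-116491545), the fold was 6.27 and 9.25 with Dox and no peak was found without it. All 6 C258A-FOXA1 libraries, which also received Dox, held this region with folds of 9.55 to 12.4, and none of 15 parental libraries did. It was thus limited to engineered libraries given Dox, 10 of 12, although Dox and the transgene were not varied in the C258A-FOXA1 line.

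The other gains at TRPS1 were a region 202.3 kb inside the gene (chr8:116478768-116479087, folds of 5.35 and 7.59) and one 32.8 kb upstream (chr8:116713853-116714196, folds of 5.35 and 5.96). At SPDEF a region 11.3 kb upstream (chr6:34535059-34535702) had folds of 6.82 and 5.48 with Dox and no peak without. All 15 parental libraries held that SPDEF region, with folds of 5.00 to 8.54. The fifth was the region 3.0 kb inside SPDEF, with folds of 3.51 and 3.33 and low percentiles of 17.4 and 9.9. With Dox and DMSO the percentiles were 12.2 and 42.0 for the TRPS1 region 202.3 kb inside. They were 12.2 and 20.6 for the one 32.8 kb upstream, and 45.6 and 25.8 for the SPDEF region 11.3 kb upstream.

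One TRPS1 region went the other way. Past the end of the gene, 288.1 kb from its start (chr8:116392815-116393461), all 15 parental libraries had a peak with folds of 7.63 to 13.2. Both WT-FOXA1 libraries without Dox held it (9.40 and 8.65), and neither with Dox and DMSO did. None of 6 C258A-FOXA1 libraries, all with Dox, had it. With Dox and PladB, both WT-FOXA1 libraries had it again at lower folds of 6.71 and 5.16, and 1 of 2 did with WX-02-23 (4.73).

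In the induced WT-FOXA1 line, WX-02-23 against DMSO lost 4 of 70 regions (5.71%) and gained 1 (1.43%), where 11.7% of all regions were lost and 1.31% gained. With 2 libraries against 2 the smallest exact p is 0.33, and no p is given. The 4 lost regions were 1 inside GRHL2, 29.5 kb from its start (chr8:102534005-102534304), the TRPS1 regions 202.3 kb inside and 32.8 kb upstream, and the SPDEF region 3.0 kb inside. The last 3 are also among the 5 gained with Dox, and both comparisons rest on the same 2 Dox and DMSO libraries. The GRHL2 region had folds of 8.85 and 8.56 after DMSO, and 14 of 15 parental and 11 of 14 engineered libraries had a peak there. The gained region was the one 24.7 kb upstream of TRPS1, with folds of 6.83 and 4.43.

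Fewer regions were held, without overlap, at 4 of the 6 genes in that comparison, as in 44.5% of genome tiles (1.09% were higher). GRHL2 held 18 and 15 regions with WX-02-23 against 23 and 20, TRPS1 3 and 3 against 5 and 7, SPDEF 9 and 7 against 11 and 11, and ELF3 9 and 9 against 10 and 11. EHF (6 and 4 against 5 and 6) and KLF5 (4 and 2 against 3 and 4) overlapped. The lists after WX-02-23 were shorter, at 67815 and 62832 peaks against 88140 and 85009. When all 4 lists had the length of the shortest, the mean difference was -2.5 at GRHL2, -0.5 at TRPS1, 0.0 at SPDEF and -0.5 at ELF3, and 1 region was lost and 2 were gained. In equal lists, 4.78% of all regions were lost and 3.89% gained.

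In the induced C258A-FOXA1 line, WX-02-23 against DMSO gained 3 of 68 regions (4.41%) and lost 0, where 2.37% of all regions were gained and 2.55% lost. The gained regions were that 23.0 kb upstream of GRHL2, one 131.9 kb inside TRPS1 (chr8:116549190-116549550, folds of 6.07 and 5.74) and one 4.5 kb upstream of EHF (chr11:34637986-34638193, folds of 4.63 and 4.98). No other library of the 29 held this EHF region, and its percentiles were 3.5 and 13.1. EHF counts were 8 and 8 with WX-02-23 against 6 and 6 after DMSO, without overlap, as in 6.29% of tiles (7.81% were lower), and the mean difference was 1.0 in lists of equal length. The other 5 genes overlapped. None of the 4 regions lost in the WT-FOXA1 line was lost here. The TRPS1 region 202.3 kb inside and the SPDEF region 3.0 kb inside had no peak after DMSO either, the GRHL2 region had a peak in both libraries of each group, and the one upstream of TRPS1 in 2 of 2 after DMSO and 1 of 2 after WX-02-23. Whether the lines differed in these calls was not tested.

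**Figure D4:**
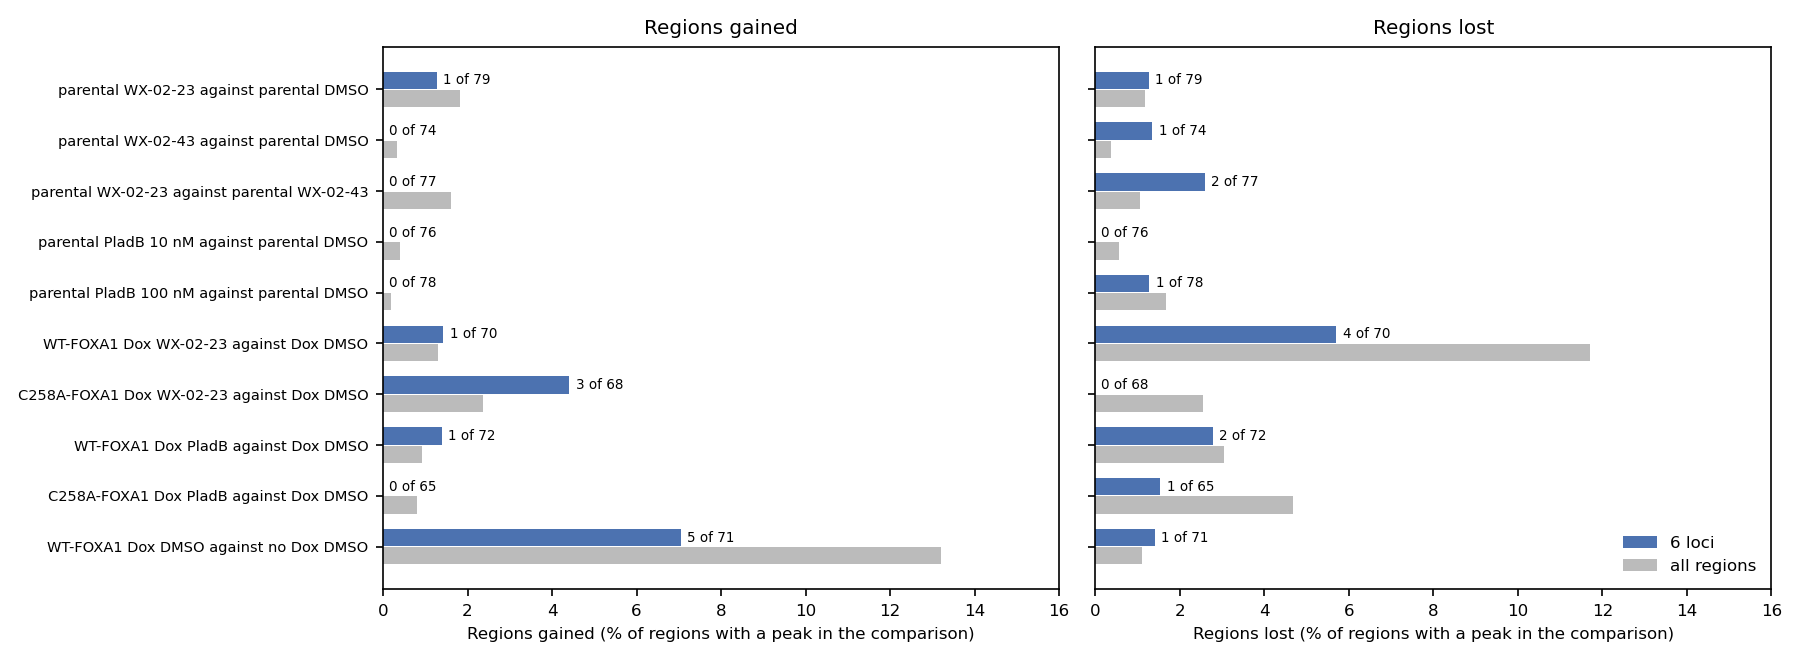
Percent of regions gained (left) and lost (right) in each of the 10 comparisons (y axis), as bars from 0, at the 6 loci (blue, with the count) and over all regions of the genome (grey). At the 6 loci the largest shares were 7.04% gained with Dox and 5.71% lost with WX-02-23 in the WT-FOXA1 line, both below the 13.2% and 11.7% of all regions.

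PladB in the induced lines gave few calls. In the WT-FOXA1 line it gained 1 and lost 2 of 72 regions, where 0.915% of all regions were gained and 3.05% lost. The gain was the TRPS1 region past the gene end described above, and the losses were the TRPS1 region 202.3 kb inside and one 40.1 kb upstream of GRHL2 (chr8:102464284-102464888). SPDEF held 7 and 10 regions against 11 and 11 after DMSO, without overlap, as in 11.6% of tiles (1.69% were higher), and the PladB lists held 71121 and 88735 peaks. In the C258A-FOXA1 line it gained 0 and lost 1 of 65, where 0.806% were gained and 4.67% lost. The loss lay 41.1 kb upstream of GRHL2 (chr8:102463429-102463746). GRHL2 (19 and 17 against 20 and 20) and TRPS1 (4 and 4 against 7 and 5) held fewer regions without overlap, as in 20.3% of tiles (1.76% were higher). The WX-02-23 and PladB comparisons of each line share their DMSO libraries.

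Some regions had peaks in parental or in engineered libraries only. A peak in parental libraries only was found for 19 regions (18.6%, against 25.2% of all), and in engineered libraries only for 13 (12.7%, against 18.5%). None of the 102 was held by all parental and no engineered libraries, and 1024 of the 166696 regions of the genome were. With so small a share over the genome, a count of 0 among 102 does not set these loci apart. The most frequent parental-only region of GRHL2 lay 99.4 kb inside the gene (chr8:102603791-102604249) and was held by 11 of 15. At ELF3 a region 48.0 kb downstream (chr1:202027338-202028042) was held by 3 of 3 libraries with WX-02-23, with WX-02-43 and with PladB at 10 nM, by 1 of 3 with DMSO and with PladB at 100 nM, and by no engineered library. TRPS1 had the largest share of engineered-only regions, 6 of 16.

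The loci varied with list length to different degrees. Over the 29 libraries, each taken as its deviation from the mean of its line, Spearman's rho between the number of regions held and the length of the list was 0.76 at TRPS1, 0.67 at ELF3, 0.55 at GRHL2, 0.47 at SPDEF, 0.19 at KLF5 and 0.09 at EHF. Among the 6 genes the most alike pair was TRPS1 and ELF3 (rho of 0.40), then GRHL2 with SPDEF and with ELF3 (0.31 each). These are descriptions over libraries that share groups and whose depth is unknown, and no p is attached to them.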

How the data were processed

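The 29 deposited narrowPeak lists give for each ATAC-seq peak the authors' integer score, fold enrichment (a ratio to local background), −log10 p-value and −log10 q-value, and a summit offset in bases (position). Per the submitters' processing notes, reads were placed on hg19 with Bowtie2 and peaks called with MACS2. Versions, options, read filters and read totals: not given in the sources used here. Each library has its own list, and the deposited lists stop at a q of 0.01.

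Peaks of all 29 lists were merged into regions where at least 1 bp was shared. Calls of gained and lost regions, exact permutation tests, Fisher's exact tests and Benjamini-Hochberg adjustment (threshold 0.05) ran over all regions, or over 150 kb tiles with at least 5 regions, in Python 3.11.15 with numpy 2.4.6, pandas 2.3.3, scipy 1.17.1 and matplotlib 3.10.9, and were tested on simulated data. Genes and lists were chosen with earlier results of these data known. Regions were named by a rule: the one at the gene start, the other one with the highest mean percentile over 7 DMSO libraries (the 2 without Dox left out, absence counted as 0), those called in parental WX-02-23 against DMSO, those called alike in the WT-FOXA1 line, and the best ranked lost with WX-02-23 or gained with Dox there. Other called regions were named after their values were seen. Alternatives were a q of 1e-05, lists cut to equal length, 50% cover, 1 library against the call, a flank of 20 kb, each library left out and a replicate block. Other luminal factor genes and exon or intron assignment were not analysed here.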

Additional observations from a re-analysis of the deposited data

How the results depend on the processing

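Of the counts of regions gained and lost at the 6 loci, 52 moved by over 1.5 times under the alternatives other than leaving out a library and 48 did not; since most counts are 0 to 5, 1 region can move one. The cause was not tested. With a q of 1e-05, parental WX-02-23 gained 2, WX-02-43 gained 1, WX-02-23 against WX-02-43 lost 1, PladB at 100 nM lost 2, WX-02-23 gained 0 (WT-FOXA1 line) and lost 1 (C258A-FOXA1 line), PladB lost 0 (C258A-FOXA1), and Dox lost 2. In lists of equal length, WX-02-23 against WX-02-43 lost 0, WX-02-23 gained 2 and lost 1 (WT-FOXA1) and lost 2 (C258A-FOXA1), PladB gained 0 and lost 1 (WT-FOXA1) and lost 0 (C258A-FOXA1), and Dox gained 2 and lost 4. With 50% of the region covered, parental WX-02-23 gained 4 and lost 2, WX-02-23 against WX-02-43 gained 4, PladB lost 1 at 10 nM and 2 at 100 nM, WX-02-23 gained 0 and lost 7 (WT-FOXA1) and lost 2 (C258A-FOXA1), and PladB gained 0 and lost 4 (WT-FOXA1) and lost 2 (C258A-FOXA1). With 1 library allowed against the call, parental WX-02-23 gained 5 and lost 6, WX-02-43 gained 4 and lost 3, WX-02-23 against WX-02-43 gained 4, PladB gained 2 and lost 4 at 10 nM and lost 6 at 100 nM. In the same setting WX-02-23 gained 4 and lost 28 (WT-FOXA1) and gained 7 and lost 12 (C258A-FOXA1), PladB gained 8 and lost 18 (WT-FOXA1) and gained 4 and lost 13 (C258A-FOXA1), and Dox gained 18 and lost 9. With a flank of 20 kb, which leaves out regions by construction, parental WX-02-23 gained 0, WX-02-23 gained 0 (WT-FOXA1), PladB gained 0 and lost 1 (WT-FOXA1) and lost 0 (C258A-FOXA1), and Dox lost 0.

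Leaving out 1 library at a time gave 1 to 3 gained and 1 to 3 lost for parental WX-02-23, 0 to 3 and 1 to 3 for WX-02-43, 0 to 1 gained for WX-02-23 against WX-02-43, 0 to 1 and 0 to 2 for PladB at 10 nM, and 1 to 4 lost at 100 nM. It gave 1 to 3 gained and 7 to 12 lost for WX-02-23 in the WT-FOXA1 line, 3 to 5 and 1 to 5 in the C258A-FOXA1 line, 2 to 3 and 3 to 8 for PladB (WT-FOXA1), 0 to 4 and 2 to 6 (C258A-FOXA1), and 5 to 12 and 2 to 5 for Dox. In the parental comparisons with DMSO the highest counts came without DMSO replicate 2, and for losses with WX-02-23 also without WX-02-23 replicate 1. Without Dox and DMSO replicate 1 of the WT-FOXA1 line, 12 regions were lost with WX-02-23 and 12 were gained and 5 lost with Dox, and without replicate 2 of that group 8 were lost with PladB. In the C258A-FOXA1 line, 5 regions were lost with WX-02-23 without replicate 2 of either group, and with PladB 6 were lost without DMSO replicate 2 and 4 gained without PladB replicate 2. In these groups of 2, 1 remaining library makes a call easier.

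Against the other 12 parental libraries, the difference of WX-02-23 changed sign with a q of 1e-05 at TRPS1 (-0.33) and EHF (-0.167), in lists of equal length at TRPS1 (-0.583), EHF (-0.33) and KLF5 (-0.33), and with 50% cover at SPDEF (0.25). Leaving out 1 library gave 0.917 to 2.417 at GRHL2, -0.25 to 0.25 at TRPS1 (-0.25 without WX-02-23 replicate 3, -0.121 without WX-02-43 replicate 3 or PladB 100 nM replicate 1), and -0.167 to 0.33 at KLF5 (-0.167 without WX-02-23 replicate 1). With the replicate number as a block, GRHL2 differed by 1.75 regions with a permutation p of 0.104, and no call changed. Same-numbered libraries had correlations of -0.018 to 0.018, and differently numbered ones of -0.022 to 0.023. In groups of 2 libraries the same-numbered and differently numbered values mirror each other. These correlations therefore cannot decide whether the numbers pair the samples. Depth limits every absence: a region can be open and have no peak at a q of 0.01.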
